A study of Rattus norvegicus with 4 samples.

Results

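The 10 genes described here mark the inhibitory interneurons of the hippocampus or carry their transmitter and peptide signals. They are Gad1, Gad2, Sst, Npy, Vip, Cck, Pvalb, Calb2, Reln and Lhx6. They were found by gene symbol in the deposited expression files, and all 10 had 1 row each among the 17445 rows of the files. RNA-seq was made from the hippocampus of Wistar rat pups on postnatal day 1, with 1 library per sex and treatment, each a pool of 3 hippocampi: control males, BPA males, control females and BPA females. The dams, aged 10 weeks according to the sample records, received bisphenol A (BPA), a monomer of polycarbonate plastic with weak estrogenic activity, at 5000 µg/kg body weight into the stomach each day from gestation day 1 until they gave birth, or the corn oil vehicle. The pups were exposed through the dam only, and the records name no genetic modification in any group. No group had a replicate library, so the spread between pups lies hidden within each pool.

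The values are FPKM, the fragments assigned to a gene per kilobase of its length, scaled to the size of the library, as the authors deposited them. FPKM is per length, so the levels of different genes can be set beside each other. Low values came in steps that match single fragments, and from these steps the depth was estimated at 8660000 to 8910000 fragments per library, and 1 FPKM then stood for 8.14 to 8.26 fragments of a transcript of 1 kb. In a bulk sample, fewer cells of a type and less RNA per cell cannot be told apart.

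Inhibitory interneurons of the hippocampus are born in the ganglionic eminences of the ventral forebrain and migrate into the hippocampus before birth. They make GABA from glutamate with the glutamate decarboxylases GAD67 and GAD65, encoded by Gad1 and Gad2. Subclasses are told apart by the peptides and calcium-binding proteins they contain, and several of these proteins appear only as the cells mature after birth. Reelin is secreted in the newborn hippocampus mainly by Cajal-Retzius cells, transient neurons of the marginal zone that also contain calretinin (Calb2), and cholecystokinin (Cck) is made by some interneurons and by excitatory neurons as well.

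The tissue was checked with marker genes. The excitatory neuron genes Neurod6 and Slc17a7 were at 135 to 161 and at 108 to 138 FPKM. Markers of neighbouring regions were low: 10 genes of striatal and eminence projection neurons summed to 17.2 to 18.7 FPKM, of which Isl1, named after its values were seen, was at most 0.23 FPKM, and 7 genes of the thalamus and hypothalamus summed to 7.84 to 9.58 FPKM. The 8 choroid plexus genes stood apart, with sums of 268 FPKM in control males and 710 in BPA males against 9.70 in control females and 46.4 in BPA females. Transthyretin (Ttr), the most abundant of them, was at 256 and 690 FPKM in the male libraries and at 3.96 and 42.4 FPKM in the female ones, and hemoglobin and other red blood cell genes summed to 839 to 1049 FPKM. The part of these tissues in the results was not tested.

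The members covered a wide range of levels. Cck was the highest with a mean of 142 FPKM over the 4 libraries, followed by Reln with 83.7, Npy with 59.3, Sst with 52.5, Calb2 with 41.3, Gad1 with 25.2, Lhx6 with 18.4 and Gad2 with 13.8 FPKM. Vip was near the lower limit with a mean of 1.67 FPKM, and Pvalb was lower still with 0.29 FPKM. The order was the same in all 4 libraries. Neighbours in it had separate ranges over the libraries except Npy and Sst, which spanned 51.0 to 62.7 and 45.2 to 58.9 FPKM, and Sst and Calb2, which spanned 37.5 to 46.9 FPKM for the latter. At this age the RNAs of Sst and Npy were thus well above that of Vip. The RNA of Pvalb, which encodes parvalbumin, the calcium-binding protein of fast-spiking basket cells, was at 2 fragments or fewer in each library.

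**Figure D1:**
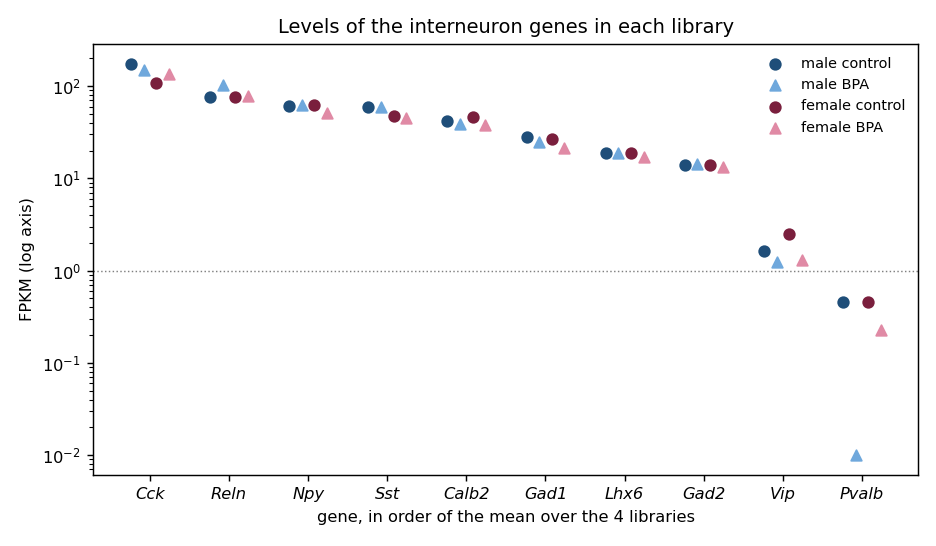
FPKM on a log axis for the 10 genes in each of the 4 libraries (circles for control, triangles for BPA; the dotted line marks 1 FPKM), in order of their mean. Cck lies highest with 108 to 176 FPKM, and Pvalb lies under 0.5 FPKM in all 4 libraries, with male BPA at the lowest listed value of 0.01.

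For Gad2, Npy and Sst, the upstream sequence is shown because their RefSeq promoter window begins at the start of the annotated gene. Of the 10 genes, 8 have a promoter window in the table that RefSeq gives for the assembly GRCr8, and 3 of these windows begin in this way. Cck and Calb2 were not matched. The 100 bases before the start, 5′ to 3′ on the coding strand with each CG in capitals, are these.
Gad2, chr17:89671618-89671717, plus strand: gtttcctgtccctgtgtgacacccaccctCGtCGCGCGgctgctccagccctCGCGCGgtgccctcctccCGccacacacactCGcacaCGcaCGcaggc
Npy, chr4:80212011-80212110, plus strand: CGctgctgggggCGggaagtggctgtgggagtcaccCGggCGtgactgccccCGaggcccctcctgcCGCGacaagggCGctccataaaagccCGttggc
Sst, chr11:90461446-90461545, plus strand: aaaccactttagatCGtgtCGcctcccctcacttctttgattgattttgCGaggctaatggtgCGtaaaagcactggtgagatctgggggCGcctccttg
CG occurs 11 times in the Gad2 stretch, 9 times in that of Npy and 5 times in that of Sst. Over the 250 bases before the start, the counts were 22 for Gad2, 17 for Npy and 8 for Sst, where the median of all 33469 rat promoters was 5 and 92.2% held at least 1 CG. Among all 8 members, the counts ran from 2 for Vip to 41 for Reln, a number that 0.980% of all promoters reached. DNA methylation was not measured here, and the counts describe the sequence only.

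The question of the study was whether prenatal BPA changes gene expression in the newborn hippocampus, and whether it does so differently in males and females. For both sexes together, the 2 BPA libraries were compared with the 2 control libraries by limma on log2(FPKM + 1), a scale that understates differences of low genes, over the 13542 rows with a mean of at least 1 FPKM. Of the members 9 were tested, and Pvalb, under that mean, was not. None of the 9 passed a Benjamini-Hochberg adjusted p under 0.05 in limma, and 0 of 9 had an unadjusted p under 0.05. Over all rows tested the share called was 0%, and 4.7% had an unadjusted p under 0.05. With sex as a covariate, 3 of the 9 (Gad1, Calb2 and Reln) had an unadjusted p under 0.05, and 0 passed after adjustment in limma. In that limma fit, 1216 of the 13542 rows had an unadjusted p under 0.05, and 2 passed after adjustment. With 2 libraries on each side, the smallest two-sided p of an exact permutation test is 0.333. Both BPA libraries lay below both control libraries for 4 of the 9 members (Gad1, Calb2, Vip and Lhx6) and above them for 1 (Reln). Groups did not overlap for 19.9% of all rows in the first direction, for 13.8% in the second and for 33.6% in either, against 55.6% of the 9 members.

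Within a sex, 1 library was set against another without a test. No member reached an absolute log2 fold change of 1 in either sex, where 1.7% of all rows did in males and 2.17% in females. At 0.5 or more there were 0 members in males (7.2% of all rows) and 1 in females (9.96%). The log2 difference had opposite signs in the sexes for 3 of 9 members, and for 43.2% of all rows. The largest difference was that of Reln in males (0.46) and that of Vip in females (-0.60). Ratios of FPKM are given below with an exact (Clopper-Pearson) 95% interval from the estimated fragments. These intervals cover counting error only and leave out the variation between pups.

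The enzymes of GABA synthesis differed from each other. Gad1, which encodes GAD67, the enzyme that makes most of the brain's GABA, was at 28.1 FPKM in control and 24.5 in BPA males, and at 26.9 and 21.4 FPKM in the females. Both BPA libraries were thus the lower ones, by a ratio of 0.872 (counting interval 0.788 to 0.965) in males and 0.796 (0.714 to 0.886) in females. In limma the log2 difference of both sexes was -0.25 (standard error 0.12, 95% interval -0.53 to 0.03, adjusted p 0.973), and without the female BPA library it was -0.16. Gad2, which encodes GAD65, the enzyme of nerve endings, was at 13.9 and 14.2 FPKM in the males and at 13.99 and 13.2 FPKM in the females. It varied least of all members, with a coefficient of variation of 2.99% over the libraries, less than the 6.58% that counting alone would give. Its log2 difference was -0.02 with a 95% interval of -0.31 to 0.26 in limma. The ratio of Gad1 to Gad2 within a library, chosen after the values were seen and independent of library scaling, was 2.02 in control and 1.73 in BPA males, and 1.92 and 1.62 in the females.

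The peptide genes gave no common direction. Sst encodes somatostatin, an inhibitory peptide of dendrite-targeting interneurons, and was at 58.9 FPKM in control and 58.7 in BPA males. In females it was at 47.2 in control and 45.2 in BPA, so that the sexes did not overlap while the treatments did. Its BPA to control ratios were 0.997 (0.848 to 1.17) in males and 0.958 (0.797 to 1.15) in females. Npy encodes neuropeptide Y, which dampens glutamate release. It was at 61.7 FPKM in control males, 62.7 in BPA males and 61.9 in control females, and at 51.0 FPKM in BPA females, the one low library. The ratio was 1.02 (0.856 to 1.21) in males and 0.825 (0.688 to 0.988) in females. The log2 difference of both sexes was -0.03 for Sst (95% interval -0.42 to 0.36) and -0.12 for Npy (-0.42 to 0.17) in limma.

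Vip encodes vasoactive intestinal peptide, the peptide of interneurons that inhibit other interneurons. It was at 1.62 FPKM in control and 1.23 in BPA males, and at 2.51 and 1.32 FPKM in the females, values that stand for about 21, 16, 32 and 17 fragments. The BPA libraries were the lower ones in both sexes, but at this depth the male difference was not detectable, with a ratio of 0.759 (0.370 to 1.53), and the female ratio of 0.526 had an interval of 0.274 to 0.976. The log2 difference of both sexes was -0.41 (95% interval -1.02 to 0.19, adjusted p 0.973 in limma). It was -0.20 without the female control library and -0.63 without the male control library.

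Cck, which encodes cholecystokinin, was lower with BPA in males and higher in females. It was at 176 FPKM in control and 149 in BPA males, a ratio of 0.849 (0.773 to 0.932). In females it was at 108 FPKM in control and 134 in BPA, a ratio of 1.24 (1.11 to 1.38), and the counting intervals of the 2 ratios did not overlap. With both sexes together the log2 difference was 0.04 (95% interval -0.48 to 0.55) in limma, and it was -0.31 without the female control library and 0.38 without the male control library. The difference between the sexes in the response could not be tested with 1 library per group. Cck is also made by excitatory neurons. The 12 genes of that list had a median log2 difference of 0.04 in males and -0.06 in females and summed to 569 FPKM in control and 560 in BPA males, and to 514 and 550 FPKM in the females. Their part in the Cck values was not tested.

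The genes of the calcium-binding proteins differed in level above all. Calb2 encodes calretinin, found in some interneurons and in Cajal-Retzius cells, and was at 42.3 FPKM in control and 38.5 in BPA males, and at 46.9 and 37.5 FPKM in the females. Both BPA libraries were lower, with a ratio of 0.912 (0.803 to 1.04) in males and 0.801 (0.706 to 0.908) in females. The log2 difference of both sexes was -0.22 (standard error 0.11, 95% interval -0.47 to 0.03, adjusted p 0.973 in limma). Pvalb was at 0.46 FPKM in both control libraries, 0.01 in BPA males and 0.23 in BPA females, which stand for about 2, 0 and 1 fragments of this short transcript. All 4 values are at or under 3 fragments, the limit that a count of 0 allows, and no fold change is given.

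Reln, which encodes the secreted glycoprotein reelin that guides the layering of migrating neurons, was the one tested member with both BPA libraries above both controls. It was at 75.5 FPKM in control and 104 in BPA males, and at 76.5 and 79.0 FPKM in the females. The BPA male library stood apart and the other 3 libraries lay close together. The ratio was 1.38 (1.34 to 1.42) in males and 1.03 (1.00 to 1.07) in females, on 7554 to 10543 estimated fragments per library, so that the counting error was small. In limma the log2 difference of both sexes was 0.25 (95% interval -0.09 to 0.59, adjusted p 0.973), and it was 0.06 without the male BPA library and 0.45 without the female BPA library. Of all rows tested, 8.64% had an absolute male log2 difference at least as large as the 0.46 of Reln. Calb2 and Reln, both known from Cajal-Retzius cells, differed in opposite directions, and the ratio of Reln to Calb2, chosen after the values were seen, was 1.79 in control and 2.70 in BPA males, and 1.63 and 2.11 in the females.

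Lhx6, the LIM homeobox transcription factor that specifies interneurons born in the medial ganglionic eminence, varied little, with a coefficient of variation of 5.57%. It was at 18.98 FPKM in control and 18.89 in BPA males, and at 18.99 and 16.9 FPKM in the females. Both BPA libraries were below both controls, but in males the ratio was 0.995 (0.888 to 1.12). The female ratio was 0.890 (0.790 to 1.00), and the log2 difference of both sexes was -0.08 (95% interval -0.36 to 0.20) in limma. It was -0.01 without the female BPA library and -0.16 without the male BPA library.

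**Figure D2:**
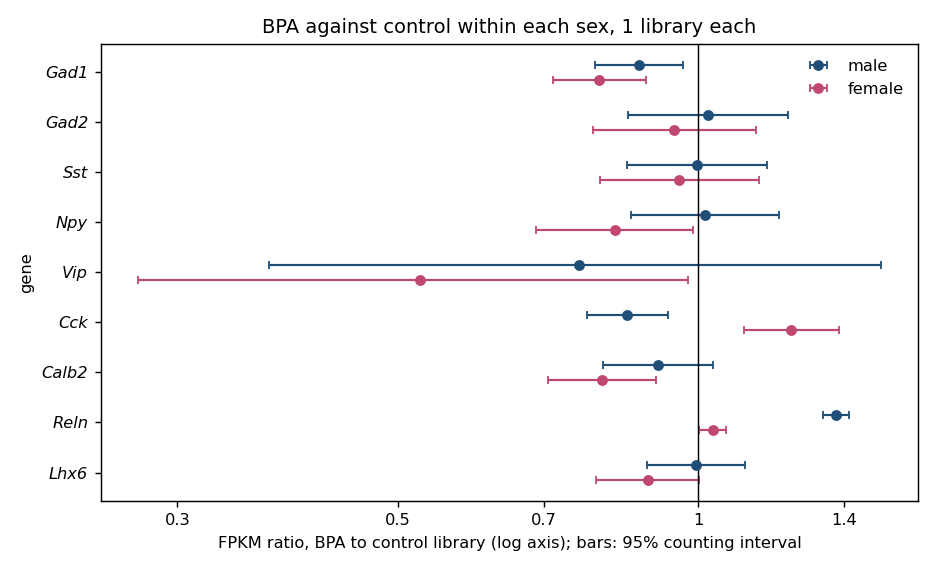
Ratio of FPKM in the BPA library to that in the control library of the same sex (log axis), with 95% counting intervals, for the 9 members with a mean of at least 1 FPKM. Gad1 lies left of 1 in both sexes, Reln lies furthest right in males with 1.38, and Cck lies left of 1 in males and right of 1 in females.

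The female and male libraries were compared in the same way, over both treatments. None of the 9 members passed an adjusted p under 0.05 in limma, and Sst and Cck had an unadjusted p under 0.05. Over all rows, 0.00738% (1 row, the X-inactivation RNA Xist by its gene ID) passed the adjusted p and 10.6% the unadjusted one. Sst was higher in both male libraries, with a mean of 58.8 FPKM in males and 46.2 in females, a log2 difference female minus male of -0.34 (standard error 0.08, 95% interval -0.53 to -0.16, adjusted p 0.246 in limma). Cck had means of 162 and 121 FPKM, a log2 difference of -0.43 (standard error 0.13, 95% interval -0.73 to -0.13, adjusted p 0.359 in limma). Without the female control library it was -0.27 (unadjusted p 0.0695 in limma), and without the male control library -0.31 (unadjusted p 0.103 in limma). For the other 7 members the sexes overlapped, and the 2 of 9 without overlap are 22.2%, where all rows gave 42.3% (22.5% lower and 19.8% higher in females). Relative to Gad2 in the same library, a ratio chosen after the values were seen, Sst was 4.24 and 4.14 in the control and BPA males and 3.37 and 3.41 in the females, so the sexes kept apart when library scaling was removed in this way.

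**Figure D3:**
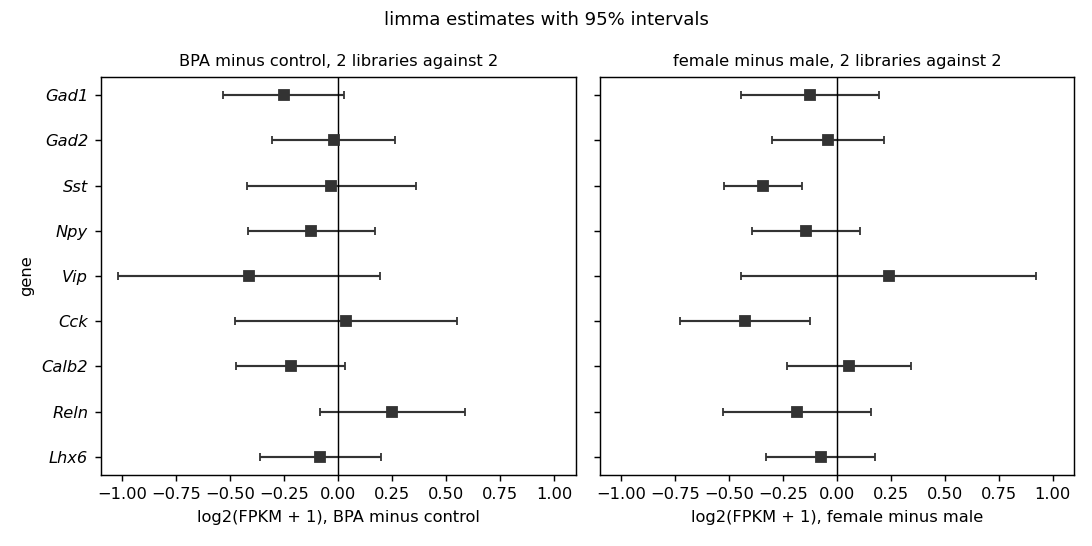
Differences of log2(FPKM + 1) with 95% intervals from limma for the 9 tested members, BPA minus control on the left and female minus male on the right, 2 libraries against 2 in each. All 9 intervals on the left include 0, and on the right those of Sst and Cck lie below 0, although neither passed the adjustment over all rows.

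Lists of related genes were examined beside the members, by counts and medians and without a test of the list. None of their genes passed an adjusted p under 0.05 in limma in either comparison. The genes that package, take up and break down GABA had the lowest median BPA difference of the lists, -0.24 on the log2 scale over 9 genes, where the median of all rows was -0.02. Of these, 5 of 9 had both BPA libraries below both controls and 0 above, where 19.9% of all rows were below and 13.8% above. Abat, the transaminase that degrades GABA, was at 16.2 and 12.7 FPKM in males and at 16.2 and 11.8 FPKM in females, and Glul, the glutamine synthetase of astrocytes, was at 128 and 110 FPKM in males and at 142 and 113 FPKM in females. Slc6a13, a transporter of the meninges and vessels, had the largest difference of this list with 10.9 FPKM in control females, against 4.67 in BPA females and 2.99 and 3.22 FPKM in the males. Slc6a11 and Aldh5a1, named after their values were seen, also had lower BPA libraries, and both are strongly expressed in astrocytes. Slc32a1, the vesicular GABA transporter and also outside the naming rule, was at 31.4 and 28.0 FPKM in males and at 20.2 and 19.1 FPKM in females, so that the sexes did not overlap while the log2 difference between treatments was -0.12.

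Among the interneuron transcription factors 16 of 17 listed genes were tested. The median BPA difference was 0.00, with 3 of 16 lower and 1 higher without overlap, the lower ones at about the 19.9% of all rows and the higher one under the 13.8%. Prox1, also the factor of dentate granule cells, was at 12.4 and 10.2 FPKM in males and at 12.8 and 7.61 FPKM in females, and Zeb2 was at 84.4 and 80.95 FPKM in males and at 85.0 and 65.5 FPKM in females. Nr2f2, a factor of interneurons from the caudal eminence, was at 50.7 and 69.1 FPKM in males and at 47.8 and 32.4 FPKM in females, so that BPA was the higher library in males and the lower one in females. The sexes stood further apart than the treatments in this list, with a median log2 difference female minus male of -0.23 and 9 of 16 genes lower and 2 higher in both female libraries, where 22.5% of all rows were lower and 19.8% higher. Sp9, a factor of newborn neurons of the ganglionic eminences, was at 12.1 and 13.97 FPKM in the control and BPA males and at 4.21 and 5.44 FPKM in the females, a log2 difference of -1.27 (adjusted p 0.112 in limma). Dlx2, a further factor of migrating interneurons named after its values were seen, was at 19.4 and 22.4 FPKM in males, against 11.1 and 13.2 FPKM in females. For Dlx1 and Dlx5 of the same list, also named after their values were seen, the sexes overlapped. Their log2 differences female minus male were -0.03 and -0.03. The sexes overlapped for Lhx6 as well, with a sex difference of -0.08 (adjusted p 0.841 in limma).

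**Figure D4:**
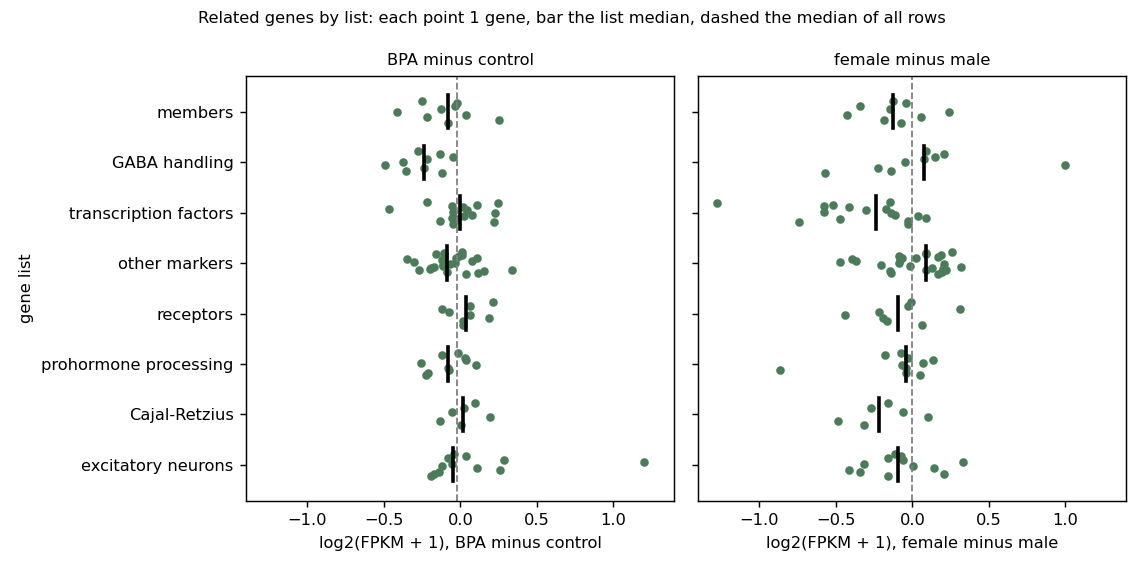
Differences of log2(FPKM + 1) of the genes of 8 lists, BPA minus control on the left and female minus male on the right; each point is a tested gene, the bar is the list median and the dashed line the median of all rows. The median of the GABA handling genes lies furthest left for BPA with -0.24, and that of the transcription factors furthest left for sex with -0.23.

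The other lists varied around the median of all rows in the treatment comparison. Of 25 tested further interneuron markers, 5 were lower and 1 higher in BPA without overlap, with a median of -0.08. The lower ones were at about the 19.9% of all rows, and the higher one was under the 13.8%. Penk, the enkephalin precursor, was the higher one, at 3.54 and 4.09 FPKM in males and at 3.69 and 5.67 FPKM in females, and Cnr1, the cannabinoid receptor of Cck interneurons, was at 77.7 and 76.4 FPKM in males and at 95.9 and 74.2 FPKM in females. Id2 was the most abundant of this list with 103 to 132 FPKM, and Adarb2, an RNA-editing homologue, was at 11.6 and 10.2 FPKM in males and at 9.85 and 6.51 FPKM in females. Of the receptors of the members' products 8 of 13 were tested, with a median of 0.04. Dab1, the adaptor that carries the reelin signal into the cell, was at 39.3 and 41.6 FPKM in males and at 35.5 and 45.3 FPKM in females, the 1 of 8 receptor list genes without overlap (2 after quantile normalization), where 13.8% of all rows were higher. Sstr1, the somatostatin receptor with the highest level, was at 16.2 to 17.7 FPKM.

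All 10 prohormone processing genes were tested, with a median BPA difference of -0.08 and 4 lower and 1 higher without overlap, against 19.9% and 13.8% of all rows. Scg2, a secretogranin of dense-core vesicles, was at 30.6 and 27.0 FPKM in males and at 34.1 and 26.8 FPKM in females. Cpe, the carboxypeptidase that trims peptide precursors, was the highest of them with 543 to 592 FPKM. Pcsk1n, an inhibitor of a prohormone convertase, was at 281 and 250 FPKM in males and at 144 and 146 FPKM in females, a log2 difference female minus male of -0.87 (adjusted p 0.0654 in limma). Of 6 tested Cajal-Retzius genes, 0 were lower and 1 higher in BPA without overlap (19.9% and 13.8% of all rows), namely Ebf3 with 1.71 and 2.26 FPKM in males and 2.05 and 2.33 FPKM in females. Spock1, the most abundant, was at 50.2 and 48.3 FPKM in males and at 40.2 and 48.0 FPKM in females. The 7 genes of this list found in all files summed to 81.0 FPKM in control and 82.4 in BPA males, the library with the highest Reln, and to 69.7 and 74.5 FPKM in the females. Spock1 was the largest part of these sums. The 6 tested genes had a median log2 difference of 0.09 in males and -0.12 in females. Nhlh2 and Tp73, named after their values were seen, were at 8.43 and 10.6 and at 3.43 and 3.90 FPKM in males. In females they were at 8.48 and 6.96 and at 2.91 and 2.57 FPKM. Ebf3 and Cacna2d2 were also higher with BPA in males, and Spock1 and Lhx5 were lower. The part of these cells in the Reln values was not tested.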

How the data were processed

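The authors deposited FPKM per gene for 4 libraries, rounded to 2 decimals and never below 0.01. The submitters' processing notes name HISAT 0.1.6, Bowtie2 2.2.5, RSEM and the build rn6, without saying which step used which. The deposited length of each gene model in bases was used to estimate fragments. From these files, rows were joined by gene ID (16375 rows in all 4) and tested on log2(FPKM + 1) with limma 3.58.1 (R 4.3.3, trended empirical Bayes), with Benjamini-Hochberg adjustment across the 13542 rows whose mean reached 1 FPKM. No new gene model had the same protein name as a member. Depth was estimated from low values of genes of 300 to 1500 bases, and 95.0% to 98.8% of those under 8 fragments lay within 0.15 of a whole number. The fit and the depth estimate were tested on simulated data. Python 3.11.15, scipy 1.17.1 and matplotlib 3.10.9 were used.

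The members and lists were chosen with earlier results of these data known. The genes named come from a rule: the members and, of each list, the 2 with the highest mean and the 2 with the largest absolute BPA difference, apart from those marked (some genes the rule names are not reported here); the neighbouring-tissue lists are given by sums and counts. Samples were grouped by treatment and sex from their titles. Alternatives were a covariate, a pseudocount of 0.1, quantile normalization, other filters, sums with new gene models, a fold threshold of 0.5, leaving out each library, and, added after seeing the data, division by Gad2.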

Additional observations from a re-analysis of the deposited data

Results flagged for a closer look

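For 3 of 9 tested members the BPA library lay above the control library in one sex and below it in the other, where 43.2% of all rows did so. The female minus male difference of the log2 changes was 0.54 for Cck (-0.24 in males and 0.31 in females), -0.30 for Npy (0.02 and -0.27) and -0.10 for Gad2 (0.03 and -0.07). With 1 library per sex and treatment these differences were not tested.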

How the results depend on the processing

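No member passed an adjusted p under 0.05 under any alternative. In each alternative that gave a value, Gad1, Calb2, Vip and Lhx6 were lower and Reln higher in BPA (Vip falls under a mean of 5). For Lhx6 the difference was as small as -0.00687, without the female BPA library. Over all rows, limma called 2 rows for BPA with sex as a covariate and 1 with sums of gene models, against 0, and 0 to 3 when a library was left out. For sex it called 55 with treatment as a covariate, 21 with a mean of at least 5 and 12 with sums, against 1, and 1 to 2 when a library was left out. At a fold threshold of 0.5, 1 member (Vip) was past it in females, where 9.96% of rows were, and 0 in males.

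Leaving out 1 library turned the sign of small differences. For BPA they ranged from -0.22 to 0.15 for Sst, -0.31 to 0.38 for Cck, -0.0687 to 0.0254 for Gad2 and -0.27 to 0.0207 for Npy. For sex they ranged from -0.10 to 0.21 for Calb2, -0.41 to 0.0416 for Reln, -0.0592 to 0.54 for Vip, -0.28 to 0.0342 for Gad1 and -0.155 to 0.00398 for Lhx6. The BPA sign turned without control males or BPA females for Sst, without control females or BPA males for Cck, and without BPA females for Gad2 and Npy. The sex sign turned without BPA males or control females for Calb2, without BPA males for Reln, without control females for Vip, and without BPA females for Gad1 and Lhx6. The cause was not tested. In these fits the lone library is assumed to vary like the others. Dividing by Gad2 gave 6 members without overlap (1 higher, 5 lower), with Gad2 itself left out, where undivided levels gave 5 of 9. The share of all rows was taken for undivided levels only (33.6%), so the count after division has no background to be set against. The fit with sex as a covariate matched the libraries by sex. No pairing beyond sex was possible because the labels give no replicate numbers that link libraries. With about 16 to 32 fragments for Vip and at most 2 for Pvalb, depth limits what can be said of these genes.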
